A study of Canis lupus familiaris and Eptesicus fuscus and Equus caballus with 6 samples.

Results

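The hAT DNA transposons of dog and horse testis were 112 repeat models in each species, chosen by name alone as every row whose class begins with DNA/hAT. They were 112 of 955 models measured in dog and 112 of 986 in horse, and the same 112 names with the same lengths stood in both. By subclass, 66 models belonged to hAT-Charlie, 31 to hAT-Tip100, 8 to hAT-Blackjack and 3 to plain hAT. A further 3 were filed as Tip100 and 1 as hAT with a question mark. Both groups were untreated adult testes, snap frozen, of a dog (Canis lupus familiaris) and of a horse, each with 1 mRNA library. The labels give no breed, age in years or number of animals, and the files list repeat models only, so the tissue label was not checked against cell markers. The study asked how piRNAs, small RNAs by which PIWI proteins find and silence mobile elements in germ cells, relate to elements in taxa that differ in element activity.

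hAT elements, named after hobo, Activator and Tam3, move by a cut-and-paste mechanism in which a transposase binds the inverted repeats at both ends of an element. Long members such as the Charlie and Zaphod models are the size of elements that once coded for the transposase. Short members, many of them named MER for medium reiterated repeat, keep the ends without the coding part and relied on the enzyme of their long relatives. In dog and horse these families are known as fossils, and RNA of old copies is often found as part of other transcripts. The hAT families of vesper bats, by contrast, include young ones.

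Levels are given in TPM, a read abundance corrected for model length, which the authors scaled over the models of each file alone, so that levels compare models per length within a library. Reads were rebuilt from TPM and length, as "rebuilt reads", because TPM alone does not show how many reads stand behind a value. The dog library held 678834 rebuilt reads, of which 84.5% fell on rRNA models and 103517 on transposable elements. The horse library held 667409, with 72.1% on rRNA and 175096 on elements. A single read was worth 13.2 TPM in dog and 14.8 TPM in horse on a model of 200 nt, but 0.838 and 0.941 TPM on one of 2800 nt. With 1 library a species there is no replicate error. Intervals of ratios and shares below are exact 95% intervals that cover counting error only. Intervals beside the TPM of a single model are the deposited ones, whose level is not given.

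The hAT class took nearly the same small share of element reads in both testes, although its summed TPM was several times larger in horse. It held 529 rebuilt reads in dog, which is 0.511% of element reads (0.469 to 0.556%), and 957 in horse, which is 0.547% (0.513 to 0.582%). The intervals of the 2 shares overlap. The 464 element models outside hAT that both files list held 3.30% of element reads in dog and 11.2% in horse. Most element reads thus lay on models listed in 1 of the 2 files only, and the hAT share depends on them. Among reads on DNA transposons of every kind, hAT models took 36.0% in dog and 37.0% in horse. Summed TPM was 877 in dog and 5761 in horse. TPM weighs a read on a short model more than one on a long model, and the dog reads lay mostly on long models. In tissue RNA, fewer cells of a type and less RNA per cell cannot be told apart.

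Most hAT reads lay on the Charlie subclass in both species. The 66 Charlie models held 456 reads in dog, 86.2% of hAT reads, and 749 in horse, 78.2%. In TPM the Charlie share was 89.0% in dog and 85.2% in horse. Tip100 models, relatives of a transposon first described in morning glory, held 66.0 reads in dog (12.5%) and 150 in horse (15.7%). Blackjack models held 5.85 reads in dog and 37.1 in horse. The plain hAT models held 0.999 and 19.9 reads, all on MER53. Of the 4 models with a question mark, MER99 alone had a read, 1.001 in horse. The order of the subclasses by reads was therefore the same in both testes.

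In dog, 2 long Charlie models held most of the hAT reads. Charlie9, a model of 2757 nt, was at 157 TPM with a deposited interval of 134 to 179, and its 184 reads were 34.8% of the hAT reads. Charlie10, of 2822 nt, was at 121 TPM (102 to 141), and its 146 reads were 27.5%. Together they took 62.4%, so the dog hAT signal was concentrated on a pair of models.

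Zaphod2, a Tip100 model of 3524 nt, followed with 37.8 TPM and 56.9 reads, and Charlie1a, of 1455 nt, with 53.6 TPM and 32.97 reads. The next 6 models by reads held 8.50 to 14.0 reads each: Charlie8, MER58A, Charlie11, Charlie17b, Cheshire and Charlie5. Charlie8 (13.5 TPM) is the family from which a transposase-derived part of the human gene GTF2IRD2 is known to come. Cheshire, filed under hAT-Charlie, was at 8.49 TPM. MER58A, a short Charlie derivative of 224 nt, was at 132 TPM (65.7 to 221) on only 11.3 reads, which puts it beside Charlie10 by TPM and far below it by reads. The 10 leading models held 91.2% of the dog hAT reads, and 29 of the 112 models had any.

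In horse the reads were spread over more models, and short MER models stood highest per length. Charlie1a led by reads, with 101 reads (10.6% of hAT reads) and 185 TPM (144 to 223). Charlie9 followed with 82.2 reads and 78.5 TPM (62.0 to 95.5), and Zaphod2 with 80.1 reads and 59.8 TPM. The 2 leading models took 19.2% and the 10 leading models 60.5% of the horse hAT reads.

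MER20, a 219 nt element known for copies that act in gene regulation in the endometrium of placental mammals, had the highest TPM of the 112 models in horse, 924 (711 to 1148), on 69.0 reads. MER58A was at 665 TPM on 50.9 reads, and MER5A, a short Charlie derivative of 189 nt, at 647 TPM on 40.9 reads. MER3 was at 588 TPM and MER5A1 at 505 TPM. MER58B was at 450 TPM on 54.7 reads. These 6 lay above the levels of all long models in horse, of which Charlie9 was highest.

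**Figure D1:**
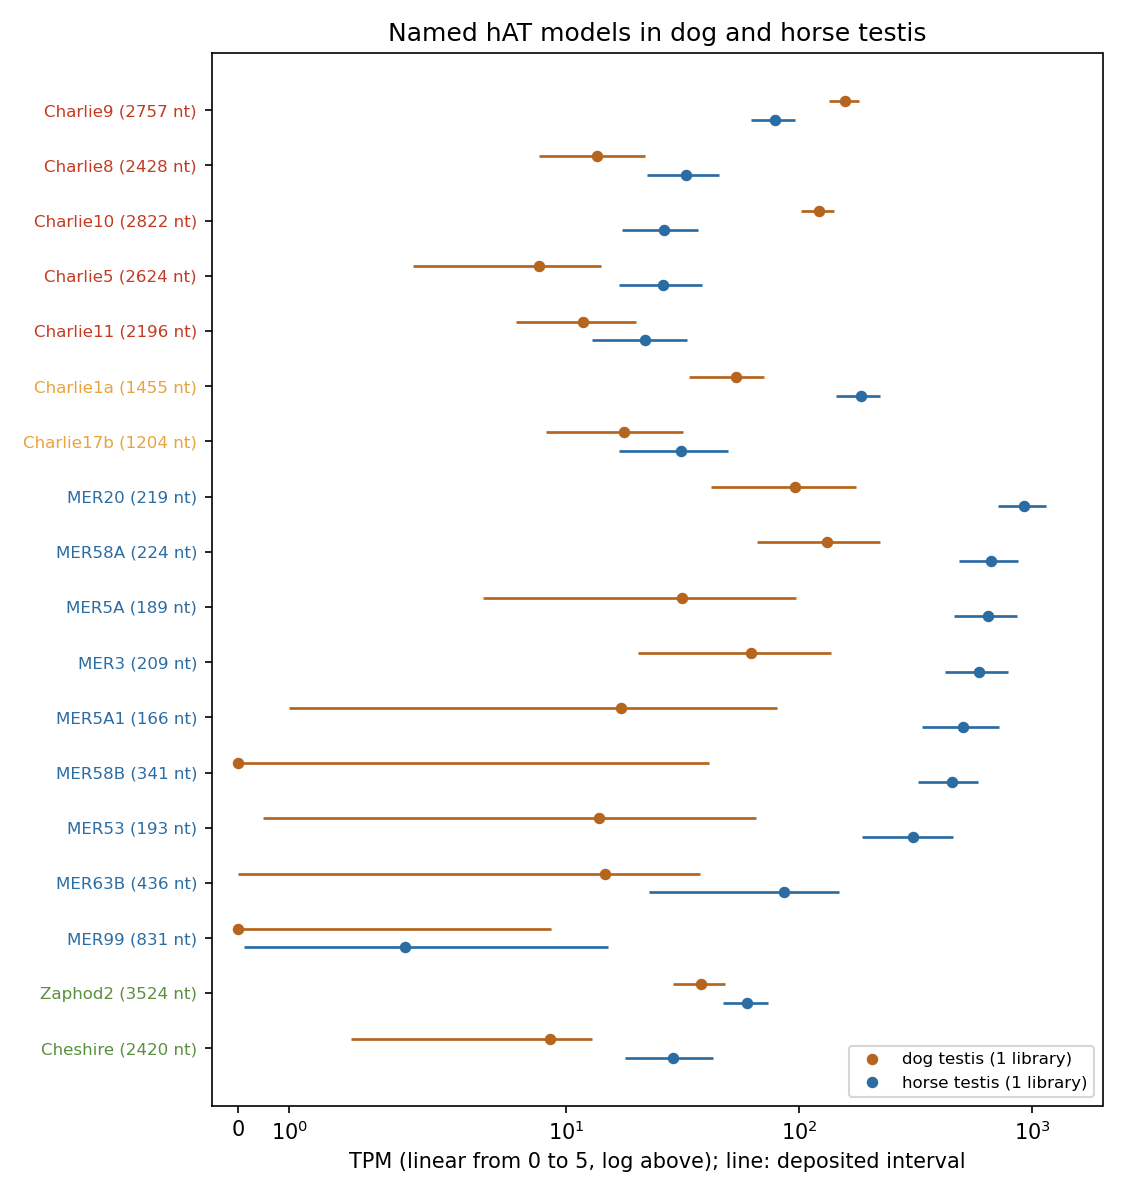
TPM of the 18 named hAT models in dog (brown) and horse (blue), with the interval deposited for each value as a line. The axis is linear from 0 to 5 TPM and logarithmic above, each group is 1 library, and label colours mark long Charlie (red), short Charlie (orange), MER (blue) and other long models (green). Charlie9 and Charlie10 lie to the right in dog, at 157 and 121 TPM, while the MER models lie to the right in horse, up to 924 TPM for MER20.

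Models named Charlie of at least 2000 nt, which are long enough to have held a transposase gene, were set against MER-named models, all under 2000 nt. There were 14 long Charlie models, with a median length of 2769 nt, and 49 MER models, with a median of 313 nt. The MER models were of several subclasses, with Tip100, Blackjack and plain hAT models among them, so not all are Charlie derivatives. The 24 Charlie models under 2000 nt, 6 other long models and 19 other short models made up the rest. Levels of a whole kind are given as pooled TPM, the summed reads over the summed length of its models.

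Long Charlie models stood above MER models per length in dog and below them in horse. In dog, pooled TPM was 22.5 for long Charlie models on 366 reads and 4.70 for MER models on 43.4 reads, a ratio of 4.80 (3.52 to 6.80). In horse it was 14.8 on 214 reads and 53.4 on 440 reads, so that MER models were 3.61 times higher (3.06 to 4.28). Charlie9 and Charlie10 decided the direction in dog. Without these models, a setting added after seeing the data, the dog ratio of long Charlie to MER models was 0.560 (0.348 to 0.889), and MER models were then higher in both libraries. Without them the remaining 12 long Charlie models were at a pooled 2.63 TPM in dog and 8.42 in horse.

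The share of reads by kind shows the same shift of weight. Long Charlie models took 69.3% of hAT reads in dog and 22.4% in horse, and MER models 8.21% and 45.9%. Charlie models under 2000 nt took 9.25% and 18.1%. The 6 other long models, Zaphod2 foremost, took 13.01% and 13.1%. By summed TPM, which gives short models more weight, MER models took 48.0% in dog and 85.4% in horse.

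**Figure D2:**
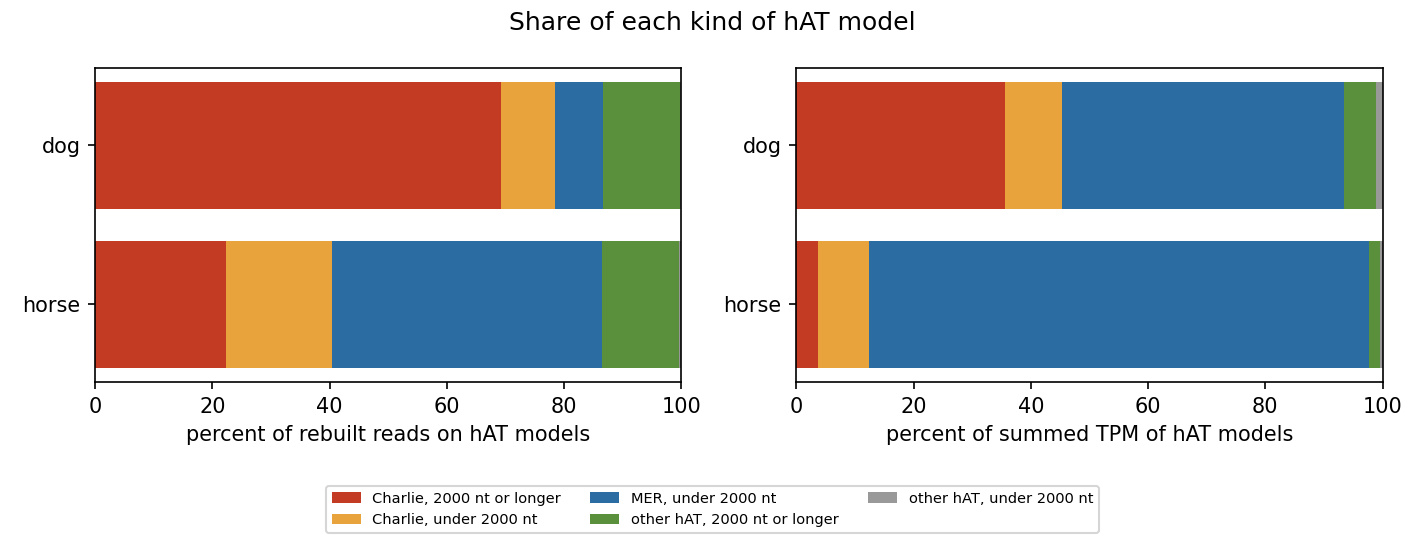
Stacked shares of the 5 kinds of hAT model in dog and horse, by rebuilt reads (left) and by summed TPM (right), in percent from 0 to 100, 1 library each. Long Charlie models take 69.3% of the dog reads and 22.4% of the horse reads, and MER models 8.21% and 45.9%.

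Counting fractions of reads that RSEM divided, a read was found on 8 of 14 long Charlie models in dog and 9 in horse, and on 14 of 49 MER models in dog and 29 in horse. This is a matter of depth as well as of level, because a short model needs a high TPM to catch a read. For the 35 MER models at 0 in dog, 3 reads would have been worth 5.91 to 77.5 TPM, with a median of 24.1. Lower levels of these models were not detectable at this depth. Among models with a read, the median TPM was 9.68 in dog and 21.7 in horse for long Charlie models, and 14.2 and 32.6 for MER models. Over the hAT models with a read, longer ones had lower TPM in both libraries, with a Spearman rho of -0.35 over 29 models in dog and -0.44 over 55 in horse. The smallest TPM that a read can give falls with length, so part of such a relation is built into the measure.

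**Figure D3:**
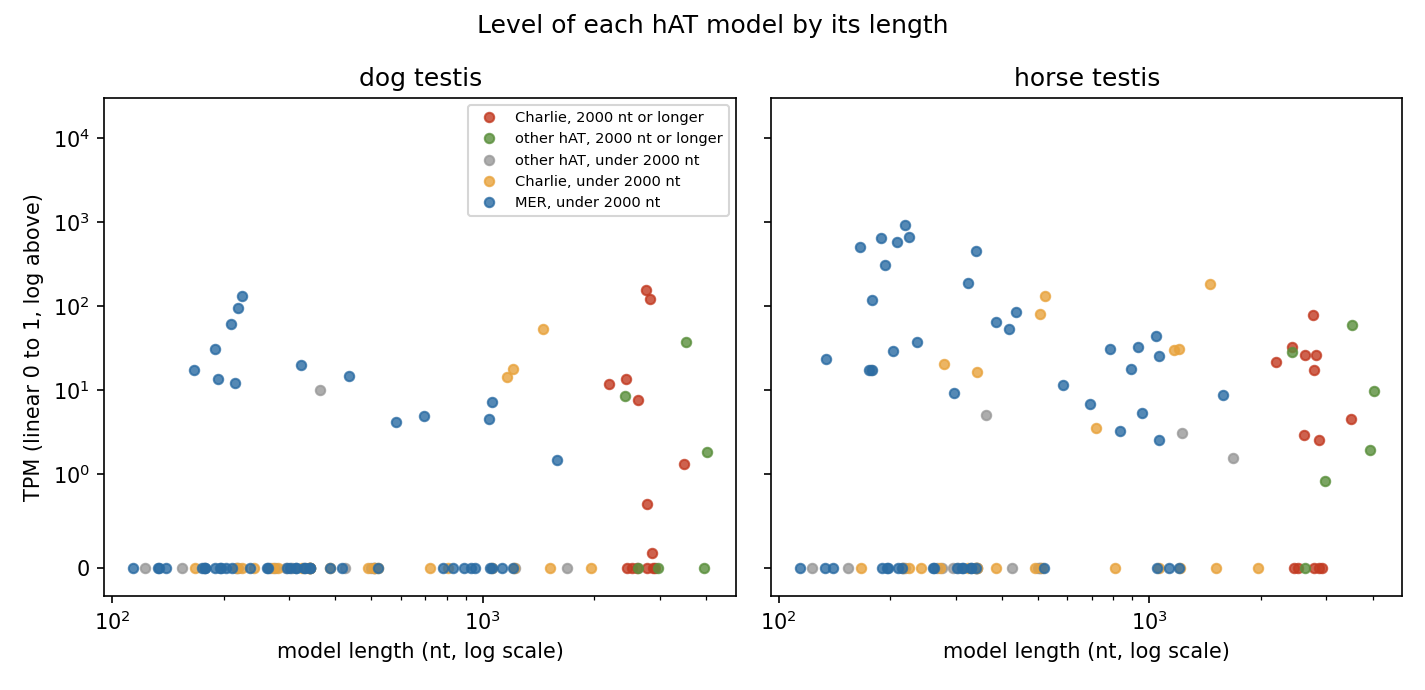
TPM of each of the 112 hAT models by its length, in dog (left) and horse (right). The length axis is logarithmic, and the TPM axis is linear from 0 to 1 and logarithmic above. In horse the highest points are MER models near 200 nt, up to 924 TPM, and in dog Charlie9 and Charlie10 reach 157 and 121 TPM near the long end.

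Between species, pooled TPM of the MER models was 11.4 times higher in horse (8.39 to 16.1), while that of the long Charlie models was lower in horse, with a ratio of 0.657 (0.552 to 0.779). Without Charlie9 and Charlie10 the long Charlie models were 3.20 times higher in horse (2.20 to 4.88). Short Charlie models were 3.97 times higher (2.87 to 5.56) and the other long models 2.05 times (1.52 to 2.79). By subclass, the horse over dog ratio was 1.84 for Charlie (1.64 to 2.08), 2.55 for Tip100 (1.90 to 3.46) and 7.13 for Blackjack (2.90 to 20.1). Over all 112 models it was 2.03 (1.83 to 2.26), against 9.62 (7.97 to 11.7) for the 39 Tigger models named in both files. It was 6.45 (6.22 to 6.69) for the 464 shared element models outside hAT, the Tigger models among them. The 39 Tigger models held 120 of 936 Tigger reads in dog and 1030 of 1537 in horse. Most dog Tigger reads thus lay outside this comparison, whereas all hAT models were in it. Tigger elements are DNA transposons of another superfamily, Tc/mariner. Without Charlie9 and Charlie10 the hAT ratio was 4.77 (4.09 to 5.61). By TPM, these 2 were the only models higher in dog among the 26 hAT models with at least 10 reads in either library. They were left out after seeing the data, so both rises follow from that choice, and the intervals do not allow for it. All ratios in this paragraph are by TPM, and against element reads each is multiplied by 0.526. On that scale the Charlie subclass held 0.441% of element reads in dog and 0.428% in horse, and all hAT models 0.511% and 0.547%.

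Of the 112 models, 26 had at least 10 rebuilt reads in either library. All 26 reached this number in horse and 7 of them also in dog, so the filter itself favours models high in horse. Of the 26, 21 were at least 2-fold higher in horse by TPM, 1 was at least 2-fold higher in dog and 4 lay between. A model at 0 in a library entered at a floor of 3 reads. Among all 146 shared element models under this filter, 95.2% were at least 2-fold higher in horse and 0.685% in dog, so that being higher in horse was the common state of these models and nothing particular to hAT. The median log2 ratio was 2.38 over the 26 hAT models and 2.62 over all 146. Among the 7 hAT models with at least 10 reads in both libraries, 3 were at least 2-fold higher in horse and 1 in dog, where the background over 60 models was 91.7% and 1.67%.

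The deposited TPM intervals gave a similar count. For 17 of the 26 hAT models the horse interval lay above the dog interval, for 2 it lay below, and for 7 the intervals overlapped. Over the 146 element models the horse interval lay above in 88.4% and below in 1.37%. The 2 models with a dog interval above that of horse were Charlie9 and Charlie10 in either set.

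The filter bore unequally on the kinds. Of the 12 MER models that passed it, 11 had at least 10 reads in horse only, as did 2 of the 6 long Charlie models and 4 of the 5 short Charlie models, so counts of higher models are not compared between kinds. These 6 long Charlie models ranged in log2 ratio from -2.21 to 2.78. The scale moves these ratios as a whole. Against element reads in place of TPM every log2 ratio fell by 0.926, without rRNA models it fell by 0.0994, and against structural RNAs other than rRNA it was higher by 0.276. On the scale of element reads 15 of the 26 hAT models were at least 2-fold higher in horse and 2 in dog, where the background over the 146 element models was 82.9% and 1.37%.

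The largest ratios belonged to short models with few dog reads. MER5A1, of 166 nt, was at 17.2 TPM in dog on 1.05 reads and at 505 TPM in horse on 27.5 reads, a ratio of 29.4 (4.998 to 1241). MER53, the leading plain hAT model, was at 13.8 and 307 TPM, a ratio of 22.3 (3.59 to 931). MER5A was at 31.2 and 647 TPM, a ratio of 20.8 (5.98 to 196). The upper bounds are wide because each of the 3 rested on under 3 dog reads.

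MER58B had no read in dog, with a deposited upper bound of 40.9 TPM, and 450 TPM in horse, a ratio of 20.47 against the floor of 3 reads in the dog library, where the exact interval of the ratio begins at 16.2. MER20 was at 95.3 TPM in dog (41.6 to 175) and 924 in horse, a ratio of 9.70 (4.65 to 23.3). MER3 was at 62.0 and 588 TPM, a ratio of 9.49 (3.74 to 30.6). MER58A, the MER model with most dog reads, had a ratio of 5.04 (2.68 to 11.1). For MER20, MER3 and MER58A the deposited intervals of the 2 species lay apart, with horse above.

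Among the 26 models with at least 10 reads in either library, the smallest horse over dog ratios besides those of Charlie10 and Charlie9 were 1.58 for Zaphod2 (1.11 to 2.25), 1.75 for Charlie17b (0.704 to 4.58) and 1.84 for Charlie11 (0.822 to 4.31), with overlapping deposited intervals in the 3 models. On the scale of element reads, where each ratio is multiplied by 0.526, these 3 models were instead slightly higher in dog. Charlie17b is a model of 1204 nt and Charlie11 of 2196 nt. Charlie8 was at 32.6 TPM in horse, a ratio of 2.41 (1.24 to 4.91), Cheshire at 28.8 TPM, a ratio of 3.39 (1.47 to 7.87), and Charlie5 at 26.0 TPM, a ratio of 3.43 (1.60 to 9.33). Charlie1a had a ratio of 3.45 (2.30 to 5.26). MER63B, the leading Blackjack model, was at 14.7 TPM in dog and 85.5 in horse, with overlapping deposited intervals and a ratio of 5.83 (1.34 to 26.6).

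**Figure D4:**
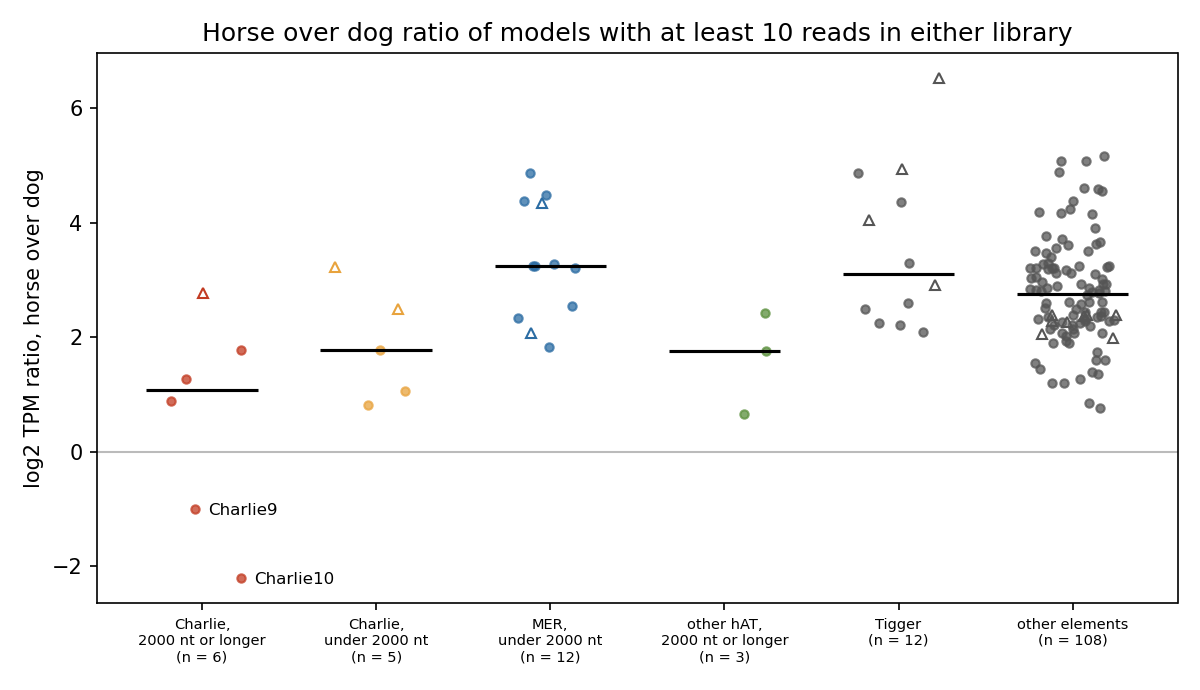
Log2 ratio of TPM, horse over dog, for the 26 hAT models by kind, 12 Tigger models and 108 other element models with at least 10 rebuilt reads in either library. Points are models, open triangles are models with no dog read set to a floor of 3 reads, and bars are medians. Charlie10 (-2.21) and Charlie9 (-0.998) are the points below 0.

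Charlie10 was the outlier of the class by its ratio and had been picked out for it, so its values are a description. It was at 121 TPM in dog and 26.2 TPM in horse (17.3 to 36.7), on 146 and 28.1 reads, 4.62 times higher in dog (3.08 to 7.23). Of the 146 shared element models it had the lowest horse over dog ratio. It was higher in dog on the 4 other scales too, 8.78 times against element reads (5.86 to 13.7) and 4.95 times without rRNA models. Against structural RNAs it was 3.82 times higher, and within hAT reads 9.39 times. Each scale only rescales the same reads, so these values are not separate evidence.

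Charlie9 had the second lowest ratio and was 1.997 times higher in dog (1.53 to 2.62), just short of the 2-fold limit. It too was higher in dog on the 4 other scales, from 1.65 times against structural RNAs (1.27 to 2.17) to 4.06 times within hAT reads (3.11 to 5.33). In horse, Charlie10 was level with Charlie5 (26.0 TPM) and below Charlie9 and Charlie8 (32.6 TPM), so that it stood out in dog and not in horse. The short models named after Charlie10 did not share its high dog level. Charlie10a, of 280 nt, had no read in dog and 2.002 in horse, and Charlie10b, of 242 nt, had none in either, where 3 dog reads would be worth 27.2 and 31.995 TPM. At those lengths the dog level of Charlie10 would give 13.3 and 11.4 reads. Their reads were too few to compare the species ratio, which for Charlie10a, dog over horse, had an interval of 0 to 4.74.

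**Figure D5:**
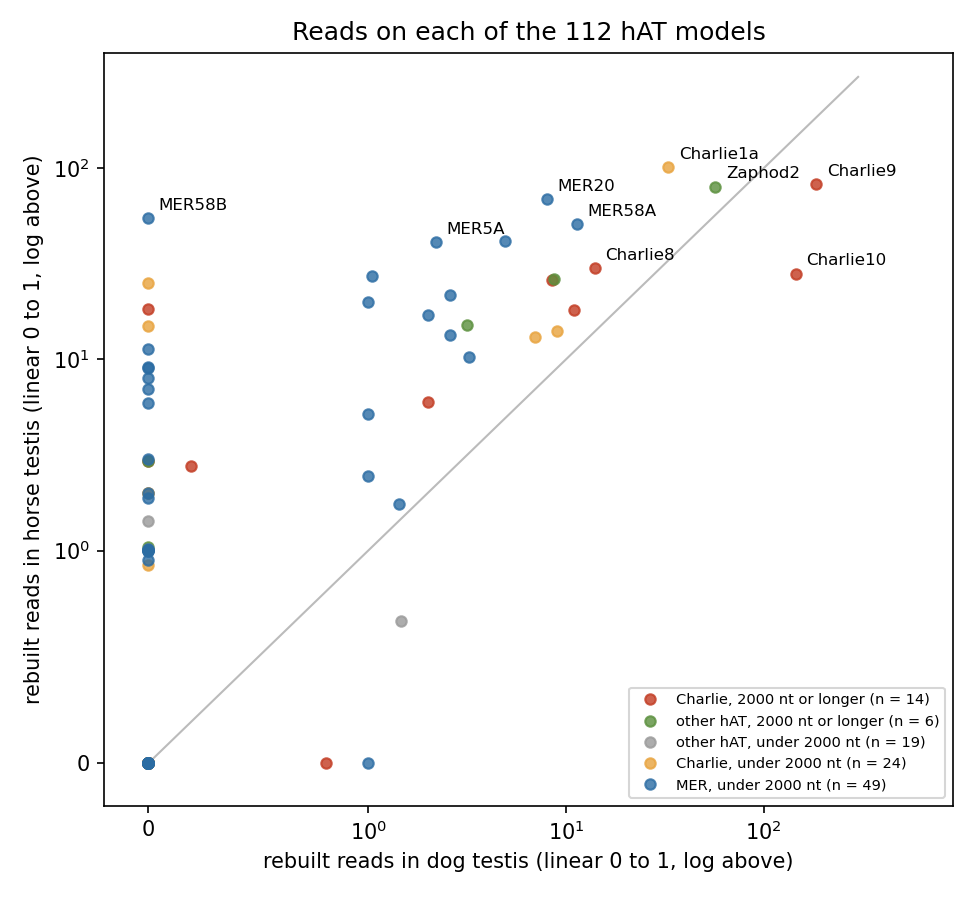
Rebuilt reads on each of the 112 hAT models in dog (x axis) and horse (y axis), linear from 0 to 1 and logarithmic above, coloured by kind, with the line of equal reads in grey. Charlie9 (184 and 82.2 reads) and Charlie10 (146 and 28.1 reads) lie below the line, and MER58B (0 and 54.7 reads) lies on the left edge.

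RSEM divides reads that match several models, so where models of a name stem are alike in sequence their sum is firmer than its parts. Stems were taken from the names, and likeness of sequence within a stem was not checked. The 3 Charlie1 models held 32.97 reads in dog, all on Charlie1a, and 145 in horse, where Charlie1a had 101, Charlie1b 25.04 and the long Charlie1 18.3. The ratio of the sums was 4.93 (3.36 to 7.44). The 4 MER58 models held 12.3 and 115 reads, a ratio of 10.4 (5.93 to 21.4). In horse MER58A and MER58B were nearly level by reads, with 50.9 and 54.7, while in dog MER58A held 11.3 and MER58B none. The 5 MER5 models held 3.26 and 69.4 reads, a ratio of 23.9 (8.48 to 128), and the MER20 pair 7.99 and 78.1 reads, a ratio of 11.0 (5.29 to 26.3).

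Tip100 and Blackjack stems showed the same direction by TPM. The 4 MER45 models held 2.99 and 31.1 reads, a ratio of 11.6 (3.62 to 59.3), led by MER45B with 16.97 reads in horse. The 3 Zaphod models held 60.1 and 95.3 reads, a ratio of 1.78 (1.27 to 2.50), nearly all on Zaphod2. As a share of element reads the Zaphod stem was slightly higher in dog, at 0.0581% against 0.0544% in horse. The 4 MER63 models, short relatives of BLACKJACK, held 5.85 and 35.1 reads, a ratio of 6.74 (2.73 to 19.1), whereas BLACKJACK itself, of 2969 nt, had no dog read and 1.05 in horse. The Charlie10 stem held 146 and 30.1 reads. Of the 4 stems with over 10 reads in both libraries, it was the only one whose sum was higher in dog by TPM. Charlie9 has no other model of its stem.

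A read was absent in both libraries from 55 of the 112 models. They were 4 of the 14 long Charlie models, 16 of the 24 short Charlie models, 19 of the 49 MER models, 15 of the 19 other short models and 1 of the 6 other long ones. A read in both libraries was found on 27 models, in horse alone on 28 and in dog alone on 2, Charlie2b and MER58C, with at most 1 read each. Of the 464 other shared element models, 215 had no read in either library, 145 had one in both, 97 in horse alone and 7 in dog alone. The split of the hAT models is therefore not read as particular to them. The share of models with a read was 25.9% in dog and 49.1% in horse for hAT, against 32.8% and 52.2% for the 464 other models. Over the 57 hAT models with a read in either library, the Spearman rho between dog and horse TPM was 0.45, with both values resting on the same models and many of them on few reads.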

How the data were processed

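Testis mRNA libraries of dog and horse, 1 each, were compared over repeat models. Per the submitters' processing notes, Bowtie and RSEM were used, without versions, and CanFam3.1 is the build named for every sample, horse included. The repeat library and mapping settings are not stated in the sources. Per the file headers, the authors deposited TPM with the bounds of an interval; the level of that interval is not given there. The small RNA files and the bat library were not used here, and no element sequence was used.

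Reads were rebuilt as TPM times the model length minus 24 nt, divided by the value of 1 read. That value was the one at which most models under 20.5 reads came within 0.05 of a whole number: 54.2% of 214 models in dog and 52.6% of 251 in horse, against 30.1% and 33.5% with no length subtracted and 53.3% and 54.2% with 25 nt. RSEM divides shared reads, so other models need not be whole. Elements were classes beginning with LINE, SINE, LTR, DNA or RC, without 7SLRNA. Ratios carry exact conditional binomial intervals, sums exact Poisson intervals and shares Clopper-Pearson intervals, on reads rounded to whole numbers. Reads are PCR copies without molecular identifiers. No test was possible with 1 library a group; a 2-fold TPM ratio counted as called, over models with at least 10 reads in either library, with a floor of 3 reads. Named models were the 10 with most reads in each library, the 5 largest ratios in each direction, the leader of each subclass and Charlie10. Members, lists and the Charlie10 question were chosen with earlier results of these data known. The read rebuilding was run on simulated whole reads with the same 24 nt subtracted, which cannot test the offset or the handling of divided reads. Python 3.11.15, numpy 2.4.6, pandas 2.3.3, scipy 1.17.1 and matplotlib 3.10.9 were used.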

Additional observations from a re-analysis of the deposited data

How the results depend on the processing

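The number of hAT models at least 2-fold higher in horse (21) fell to 3 where 10 reads were required in both libraries, because 7 models were left. It ran from 15 to 28 under the other filters, scales, offsets and a fold of 4. The 28 were 82.4% of 34 hAT models without the filter on reads, near the 86.8% of 212 element models. No background was counted for the fold of 4, the other offsets, without rRNA models or against structural RNAs. The 1 model higher in dog became 2 against element reads and without rRNA models, as Charlie9 joined Charlie10. The median log2 ratio of 2.21 (pseudocount of 1 read) was 0.835 with 10 reads in both and 1.28 against element reads, and it ran from 1.90 to 2.50 otherwise. Long Charlie over MER models in dog, 4.80 by pooled TPM, was 29.5 as reads per model, 2 as share of models with a read, and 0.560 without Charlie9 and Charlie10. In horse the ratio of 0.277 was 0.158 without these models, but 1.71 as reads per model and 1.09 as share of models with a read, measures that favour long models by construction. The Charlie share of horse hAT TPM, 85.2%, was 78.2% by reads. The dog over horse ratio of Charlie10, 4.62, was 8.78 against element reads and 9.39 within hAT reads. Settings with models at 0 at the floor, or without Charlie9 and Charlie10, were chosen after seeing the data. No paired analysis was possible because each species has 1 library, and no replicate could be left out. Depth limits the short models most: in dog 22 of 29 models with a read had fewer than 10.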

Other observations

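Among the 12 shared element models with the lowest horse over dog ratios, 7 were hAT models, which were 26 of the 146 models (17.8%) that passed the filter. They were Charlie10, Charlie9, Zaphod2, Charlie17b, Charlie11, Charlie14a and Charlie8. This list was picked by its values and has no test. The other 5 were LTR40b, MLT1F1, L1ME3A_3end, MER34-int and MER74A, with ratios from 1.69 to 2.42.

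Some models were without a read in a library where a shorter model of the same name stem had several. Charlie4, of 1961 nt, had none in either library, and Charlie4a, of 508 nt, had none in dog and 15.0 reads in horse, or 81.0 TPM (45.2 to 129), a ratio of 5.62 if dog is set to 3 reads, with an exact interval that begins at 4.03. Charlie17, of 2916 nt, had none in either, while Charlie17b had 8.99 reads in dog and 14.0 in horse. Charlie1, of 2781 nt, had none in dog, where Charlie1a had 32.97.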
